A study of Mus musculus with 6 samples.

Results

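The angiogenic factors described here were 10 genes for secreted proteins that act on blood or lymphatic vessels. They were chosen by gene name as the 5 VEGF family genes Vegfa, Vegfb, Vegfc, Vegfd and Pgf, the angiopoietins Angpt1 and Angpt2, the angiopoietin-like genes Angptl2 and Angptl4, and Adm. All 10 were found among 18134 gene names, each on 1 row, and 9 of them passed the filter on low counts. Bulk RNA of MEFs (mouse embryonic fibroblasts, connective tissue cells grown from embryos) had been sequenced in 3 libraries labelled Ufl1-KO and 3 labelled NC, an abbreviation that the labels do not spell out. Ufl1 encodes the ligase that attaches the ubiquitin-like protein UFM1 to other proteins. The title of the series names knockdown and 24 h of hypoxia, but no library is labelled with an oxygen condition, so the question addressed is how the factors differ between the genotype labels. The labels name no allele, guide or clone for the knockout and no culture for a replicate, so p-values measure only the spread between these libraries.

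VEGF-A drives the growth and permeability of blood vessels through its receptors on endothelial cells, while PlGF (from Pgf) and VEGF-B bind the receptor Flt1 but not Kdr, and VEGF-C and VEGF-D act mainly on lymphatic vessels. Angiopoietin 1 activates the receptor Tie2 and stabilises vessels, angiopoietin 2 mostly opposes it, and the angiopoietin-like proteins do not bind Tie2. Adrenomedullin, the peptide made from Adm, dilates vessels and supports lymphatic growth. Fibroblasts are sources of these factors rather than their main targets, and Vegfa, Angptl4 and Adm are known to be induced by hypoxia-inducible factor (HIF), which binds DNA at the cores ACGTG and GCGTG.

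Because Vegfa and Adm are HIF targets and were both lower in Ufl1-KO, while the test called no change of Vegfb, the 250 bases before the annotated start of each are shown. The sequences are from RefSeq on GRCm38.p6 and read 5′ to 3′ on the gene's strand. Capitals mark a HIF core on either strand, where CACGC is GCGTG read from the other strand. The windows lie at chr17:46032378-46032627 on the minus strand for Vegfa, chr7:110627407-110627656 on the plus strand for Adm, and chr19:6987652-6987901 on the minus strand for Vegfb.
Vegfa: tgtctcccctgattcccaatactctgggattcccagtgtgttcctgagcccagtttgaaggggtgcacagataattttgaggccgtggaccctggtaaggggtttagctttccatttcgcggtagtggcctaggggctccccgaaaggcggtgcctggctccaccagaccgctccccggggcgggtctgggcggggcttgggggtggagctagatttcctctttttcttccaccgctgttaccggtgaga
Adm: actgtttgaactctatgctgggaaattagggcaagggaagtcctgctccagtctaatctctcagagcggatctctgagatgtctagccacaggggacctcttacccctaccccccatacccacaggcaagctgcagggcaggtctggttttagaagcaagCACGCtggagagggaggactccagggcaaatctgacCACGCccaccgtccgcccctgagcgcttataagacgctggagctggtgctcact
Vegfb: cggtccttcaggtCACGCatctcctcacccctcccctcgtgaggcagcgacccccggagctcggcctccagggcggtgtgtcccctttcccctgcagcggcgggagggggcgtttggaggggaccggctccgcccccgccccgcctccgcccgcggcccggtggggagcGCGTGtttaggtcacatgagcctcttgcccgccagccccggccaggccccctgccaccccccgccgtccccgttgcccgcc
The Vegfa window held neither core, the Adm window held GCGTG on the minus strand at 2 places, and the Vegfb window held it once on each strand. Absence from this window says only that these letters are not in it, and the HIF element known for Vegfa lies further upstream. RefSeq windows were at hand for 7 of the 10 factors, and Vegfa and Pgf had 2 each, of which both Pgf windows and the second Vegfa window lie inside the gene. All 250 bases of the first Pgf window and 144 of the Vegfd window are annotated as UTR. Outside the windows shown, a core was found in that second Vegfa window (ACGTG and GCGTG) and in the first Pgf window (GCGTG). Both of these windows lie inside the gene, so their cores are not in sequence before it. No core was found in the windows of Vegfc, Vegfd and Angptl2. Searched on both strands of 32851 windows of the same length, ACGTG was present in 16.6%, GCGTG in 28.2% and either in 38.6%. The element TGATGNAA, bound by C/EBP-ATF factors such as ATF4, was in 3.45% of all windows and in none of the factors' windows. The E-box CACGTG, which contains ACGTG, was in 6.02% of all windows and likewise in none of these.

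Library totals ran from 15887011 to 21831860 counts. Ufl1 itself was at 3.08, 3.76 and 4.6 CPM in Ufl1-KO against 22.9, 27.0 and 27.0 CPM in NC (log2 fold change -2.75, SE 0.15, edgeR adjusted p = 1.34e-06). CPM here is the count scaled to library size after TMM correction, as edgeR gives it, and a positive log2 fold change means higher in Ufl1-KO. NC replicate 1 stood apart from its group, with a root mean square log2 difference over genes of 0.410 and 0.384 from the other NC libraries, which differed from each other by 0.257. The Ufl1-KO libraries differed among themselves by 0.217 to 0.243, and libraries of different groups by 0.769 to 0.932. Results that rest on NC replicate 1 are given with and without it.

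Of the 9 angiogenic factors tested, 6 fell in Ufl1-KO and 1, Angpt1, rose, leaving Vegfb and Vegfd uncalled. Angpt1 passed the filter on low counts only through the Ufl1-KO libraries, where it was high, so its direction here was favoured by the filter. The calls came from edgeR's quasi-likelihood test at a Benjamini-Hochberg adjusted p under 0.05 over all 12224 genes tested, of which 66.7% were called, 33.3% higher and 33.4% lower. With library size as the only scaling, 43.9% of genes were called higher and 25.5% lower, and all genes together had a median of 0.18 in place of 0.00 on the log2 scale. The same 6 factors lower and 1 higher were called under both scalings, with medians of -0.65 with TMM and -0.48 with library size. The libraries of the groups did not overlap for 7 of the 9 tested factors, while 71.7% of all tested genes had no overlap. Without NC replicate 1 all 10 factors were tested, and 8 were called lower and 2 higher, where 75.8% of 12376 genes were called, 38.6% higher and 37.1% lower. The 2 higher were Angpt1 and Angpt2, and both passed that filter only through Ufl1-KO. Tested against a fold change of 1.5 in place of no change, 3 factors (Vegfa, Pgf and Adm) were called lower and Angpt1 higher, where 13% of genes were called lower and 9.93% higher.

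**Figure D1:**
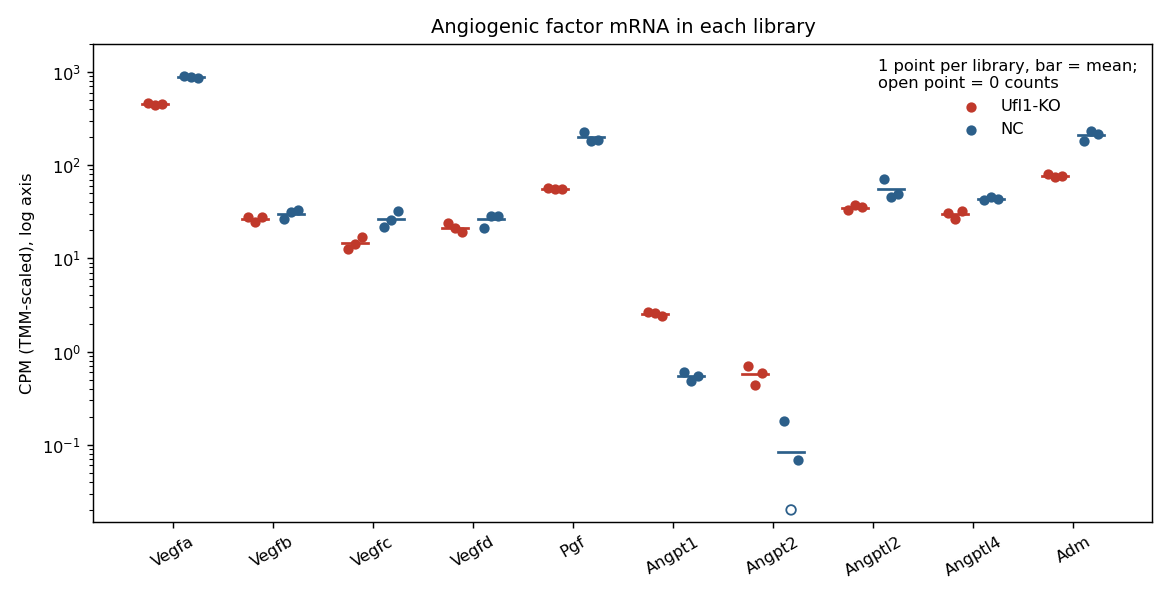
CPM of the 10 angiogenic factors on a log axis, with 1 point per library, Ufl1-KO left of NC and a bar at each group's mean, where the open point is a library with 0 counts. Vegfa, Vegfc, Pgf, Angptl2, Angptl4 and Adm lie lower in all 3 Ufl1-KO libraries than in any NC library, and Angpt1 and Angpt2 lie higher.

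Vegfa, the main vascular growth factor and the most abundant of the 10 per length, fell 1.95-fold in Ufl1-KO. It was at 469, 438 and 457 CPM in Ufl1-KO against 915, 880 and 869 CPM in NC. Every Ufl1-KO library was far below every NC library, and the libraries within a group varied little, with means of 455 ± 16.0 CPM in Ufl1-KO and 888 ± 24.1 CPM in NC (SD, n = 3 each). The log2 fold change was -0.97 (SE 0.06, 95% interval -1.09 to -0.84, edgeR adjusted p = 1.71e-06), and 10.6% of all tested genes had a lower one. The gene lies at chr17:46016993-46032369 on the minus strand (GRCm38, GENCODE M21, as for all positions of genes here).

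Pgf, at chr12:85166635-85177790, encodes PlGF, which binds the VEGF receptor Flt1, and fell the most of the 9 tested factors. Its CPM was 57.0, 55.4 and 56.2 in Ufl1-KO against 226, 183 and 188 in NC. The Ufl1-KO libraries were nearly alike and the NC libraries more spread, without coming near them. The log2 fold change was -1.82 (SE 0.09, 95% interval -2.02 to -1.62, edgeR adjusted p = 7.31e-07), a 3.54-fold fall, and 3.40% of genes had a lower one.

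Vegfb, at chr19:6982473-6987651, encodes a further ligand of Flt1, with known roles in heart and fat tissue, and it did not pass the test. It was at 27.6, 24.7 and 27.9 CPM in Ufl1-KO against 26.2, 31.3 and 33.0 CPM in NC, and the groups overlapped through NC replicate 1. The log2 fold change was -0.17 (95% interval -0.41 to 0.06, edgeR adjusted p = 0.173), it was 0.01 with library size scaling, and without NC replicate 1 it was -0.25 (adjusted p = 0.00677). A fall by more than 0.41 on the log2 scale lies outside the interval over all libraries.

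Vegfc, at chr8:54077606-54187096, encodes the principal lymphatic growth factor and fell 1.80-fold. Its CPM was 12.8, 14.4 and 17.2 in Ufl1-KO against 21.6, 26.1 and 32.1 in NC. The spread was wide in both groups, but they did not overlap, and the log2 fold change was -0.85 (SE 0.16, 95% interval -1.21 to -0.49, edgeR adjusted p = 0.00132). Vegfd, at chrX:164373378-164402650, encodes the other lymphatic VEGF and was at 23.7, 21 and 19.3 CPM in Ufl1-KO against 21.1, 28.8 and 28.7 CPM in NC. The groups overlapped through NC replicate 1, and the log2 fold change of -0.29 did not pass the test (95% interval -0.60 to 0.01, edgeR adjusted p = 0.0835). Without NC replicate 1 it was -0.41 (adjusted p = 0.000232).

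Of the 5 VEGF receptors and coreceptors, all tested, 2 rose and 1 fell, and the median log2 fold change was 0.23. Beside this and every later list of genes or markers stands the share over all tested genes, 66.7% called, 33.3% higher and 33.4% lower. Flt4, the receptor of VEGF-C and VEGF-D, rose to 59.9 ± 2.29 CPM in Ufl1-KO, against 22.7 ± 1.49 CPM in NC (log2 fold change 1.40, SE 0.08). The coreceptor Nrp1 rose to 48.6 ± 2.10 CPM in Ufl1-KO, against 26.2 ± 4.11 CPM in NC (0.89, SE 0.11), and the coreceptor Nrp2 fell to 67.6 ± 5.79 CPM in Ufl1-KO, against 135 ± 26.6 CPM in NC (-1.0, SE 0.13). Neither of the main VEGF-A receptors passed the test: Flt1 was at 46.7 ± 2.20 CPM in Ufl1-KO and 45.7 ± 5.97 CPM in NC, and Kdr at 4.67 ± 0.612 CPM in Ufl1-KO and 4.02 ± 0.788 CPM in NC (edgeR adjusted p = 0.796 and 0.306).

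VEGF-C and VEGF-D are made as precursors that proteases cut into active forms, and of 7 genes for this step, all tested, 2 rose and 3 fell (median log2 fold change -0.24). Furin, a proprotein convertase, rose to 80.6 ± 4.72 CPM in Ufl1-KO, against 28.8 ± 10.3 CPM in NC (1.48, SE 0.20), and the related Pcsk7 had a log2 fold change of 0.59 (SE 0.12). Pcsk5, a further convertase, fell (-1.10, SE 0.29), as did the protease gene ADAMTS14 (-0.71, SE 0.14) and Ccbe1 (-0.49, SE 0.11), whose product helps ADAMTS3 cut VEGF-C. ADAMTS3 itself had a log2 fold change of -0.24 and Ctsd, for cathepsin D, of -0.11, and neither passed (edgeR adjusted p = 0.184 and 0.0941). The groups did not overlap for Ctsd, and without NC replicate 1 its log2 fold change was -0.12 (adjusted p = 0.00867). With library size scaling Ctsd was at 0.07 (adjusted p = 0.254). Both symbols in capitals are as the files give them. The calls of Ccbe1 and Pcsk5 were lost in limma on log2(FPKM + 1), with adjusted p of 0.114 and 0.108.

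**Figure D2:**
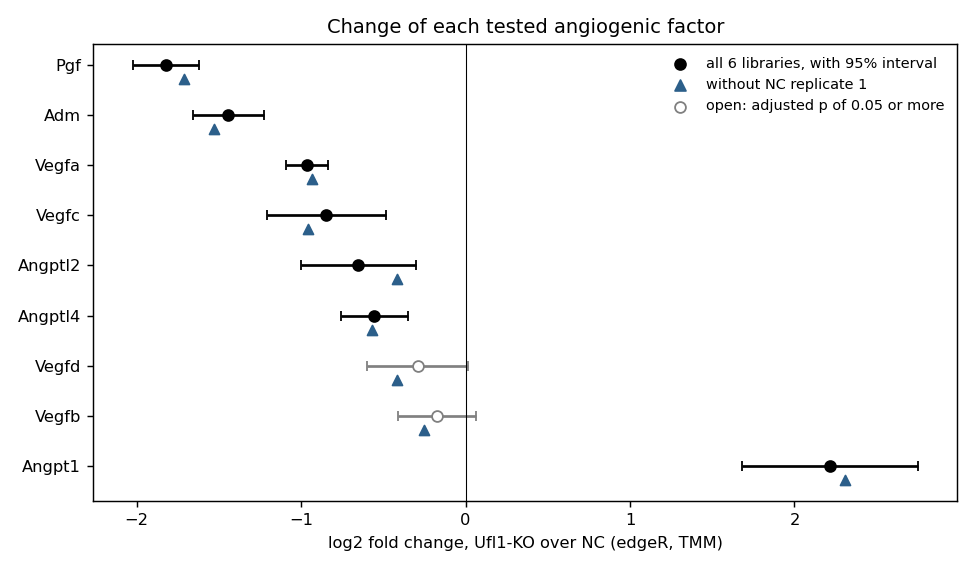
Log2 fold change of each tested factor, Ufl1-KO over NC, with the 95% interval over all 6 libraries (circles, open where the adjusted p was 0.05 or more) and without NC replicate 1 (triangles). Pgf lies lowest at -1.82 and Angpt1 highest at 2.22, and the triangle of Angptl2 lies nearer 0, at -0.42.

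Angpt1, at chr15:42424723-42676977, encodes the activating ligand of Tie2 and was the 1 tested factor that rose. It was at 2.65, 2.62 and 2.39 CPM in Ufl1-KO against 0.601, 0.489 and 0.545 CPM in NC. These are low levels, from 61, 48 and 53 counts in Ufl1-KO against 10, 9 and 8 counts in NC, and the groups were well apart. The log2 fold change was 2.22 (SE 0.24, 95% interval 1.68 to 2.75, edgeR adjusted p = 4.66e-05), and 99.5% of genes had a lower one. Angpt1 passed the filter on low counts only through Ufl1-KO, so the filter favoured this direction. The 99.5% is likewise taken over genes that passed that filter. Of the exon bases of Angpt1, 14.2% are shared with the antisense gene Gm17473, whose reads cannot be told apart here because no strand setting is given.

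Angpt2, at chr8:18690263-18741562, encodes the ligand that mostly opposes Angpt1, and it did not pass the filter. It had 16, 8 and 13 counts in Ufl1-KO against 3, 0 and 1 counts in NC. All 3 Ufl1-KO libraries were above all NC libraries, with 37 counts in Ufl1-KO and 4 in NC in all. Scaled to library size after TMM correction, the ratio was 7.24, with a 95% interval of 2.60 to 28 that covers counting error only. Of the NC counts, 3 come from NC replicate 1. The fitted log2 fold change was 4.01 without NC replicate 1, which leaves 1 count in NC, and 2.13 without NC replicate 2, which leaves 4, so both depend on the prior count of the fit. Where no filter was used, edgeR gave an adjusted p of 0.00607 and the DESeq2 Wald test 0.00997. Angpt2 lies inside Mcph1 on the opposite strand, with no exon in common.

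Of the 3 tested genes for angiopoietin receptors and partners, 1 fell and 2 did not pass. Svep1, an extracellular matrix protein reported to bind the receptor Tie1, fell to 1.52 ± 0.211 CPM in Ufl1-KO, against 9.09 ± 1.16 CPM in NC (log2 fold change -2.57, SE 0.18). Tek, which encodes Tie2, was at 1.13 ± 0.246 CPM in Ufl1-KO and 1.31 ± 0.663 CPM in NC, and Tie1 had 0 counts in all 6 libraries. Ptprb, a phosphatase that acts on Tie2, had a log2 fold change of 1.55 that did not pass (edgeR adjusted p = 0.0671). It got past the filter on low counts only through Ufl1-KO, at 0.631 to 0.824 CPM there against 0.0543 to 0.681 CPM in NC. Without NC replicate 3 the fitted log2 fold change of Ptprb was 3.53. Few NC counts are left in that fit, so this value depends on its prior count.

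Angptl2, at chr2:33216069-33247717, encodes a secreted glycoprotein linked to inflammation, and Angptl4, at chr17:33773750-33781830, an inhibitor of lipoprotein lipase. Both fell. Angptl2 was at 33.0, 37.1 and 35.2 CPM in Ufl1-KO against 70.9, 45.1 and 49.4 CPM in NC. NC replicate 1 was the highest library by far, and the groups did not overlap. The log2 fold change was -0.65 (SE 0.15, 95% interval -1.0 to -0.30, edgeR adjusted p = 0.00472), and -0.42 without NC replicate 1. Angptl2 lies inside Ralgps1 on the opposite strand, with no exon in common. Angptl4 was at 31.0, 26.4 and 31.9 CPM in Ufl1-KO against 42.1, 45.4 and 43.8 CPM in NC. Its groups were compact and apart, and the fall was 1.47-fold (log2 fold change -0.55, SE 0.09, 95% interval -0.76 to -0.35, edgeR adjusted p = 0.000596).

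Among 8 other angiopoietin-like genes and partners of lipoprotein lipase, 3 were tested, of which 2 fell and 1 did not pass. Angptl6 fell to 2.29 ± 1.14 CPM in Ufl1-KO, against 26.6 ± 6.35 CPM in NC (log2 fold change -3.50, SE 0.30). Lpl, the lipase that Angptl4 inhibits, fell to 168 ± 2.50 CPM in Ufl1-KO, against 254 ± 49.3 CPM in NC (-0.60, SE 0.12), and Lmf1, which helps the lipase fold, was at 19.5 ± 1.43 CPM in Ufl1-KO and 19.1 ± 1.17 CPM in NC. Gpihbp1, which anchors the lipase to vessel walls, had 0 counts in all libraries, and Angptl1, Angptl7 and Angptl8 averaged under 1 CPM in both groups and were not tested.

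Adm, at chr7:110627661-110629820, encodes the precursor of adrenomedullin and fell 2.72-fold. It was at 81.0, 74.0 and 75.9 CPM in Ufl1-KO against 180, 230 and 217 CPM in NC. NC replicate 1 was the lowest NC library and still far above every Ufl1-KO library. The log2 fold change was -1.44 (SE 0.10, 95% interval -1.66 to -1.23, edgeR adjusted p = 3.17e-06), with 5.23% of genes lower.

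Of the 6 tested genes listed for adrenomedullin receptors and their partners, a related peptide and maturation, 4 fell and 1 rose (median log2 fold change -0.59). Adm2, the related peptide, fell (-0.85, SE 0.08), as did the Calcrl partners Ramp1 (-1.49, SE 0.26) and Ramp3 (-0.86, SE 0.17). Pam, which amidates adrenomedullin, fell as well (-0.33, SE 0.06). The call of Pam was lost with library size scaling, where it was -0.15 (adjusted p = 0.0607). Calcrl, the receptor itself, was at 3.11 ± 0.639 CPM in Ufl1-KO and 1.84 ± 0.683 CPM in NC, and passed narrowly (0.73, SE 0.28, edgeR adjusted p = 0.0434). Its adjusted p was 0.0871 without NC replicate 2, 0.130 without NC replicate 3, 0.0816 without Ufl1-KO replicate 1 and 0.148 without Ufl1-KO replicate 2. The scavenger receptor Ackr3 had a log2 fold change of 0.37 (adjusted p = 0.248), and 0.86 without NC replicate 1 (adjusted p = 1.42e-09). Ramp2, a further partner of Calcrl, was too low to test, at 0.113 ± 0.0611 CPM in Ufl1-KO and 0.104 ± 0.102 CPM in NC.

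For the 7 called factors, an exact permutation test over the libraries, two-sided and on log2 CPM, gave p = 0.1, the smallest that 3 against 3 allows. For Vegfb the same exact test gave p = 0.3 and for Vegfd p = 0.2.

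Levels of different genes can be compared per length from the deposited FPKM (fragments scaled to transcript length and to the library total), and the order of the 10 factors was the same in both groups. By mean FPKM, Vegfa led with 166 ± 11.8 in Ufl1-KO and 273 ± 15.9 in NC. Adm had 58.5 ± 2.82 in Ufl1-KO and 140 ± 16.2 in NC, and Pgf 37.5 ± 0.689 in Ufl1-KO and 117 ± 15.5 in NC. Vegfb came next, with 22.9 ± 1.66 in Ufl1-KO and 22.7 ± 2.32 in NC. Below it were Angptl4, Angptl2, Vegfd and Vegfc, with means between 6.65 and 14.1 in Ufl1-KO and between 10.1 and 18.5 in NC. Angpt1 was at 0.633 ± 0.0308 in Ufl1-KO and 0.120 ± 0.0136 in NC, and Angpt2 last at 0.170 ± 0.0387 in Ufl1-KO, while in NC it was 0.048, listed at 0, and 0.018. Neighbours in the order overlapped in Ufl1-KO only for Angptl2 and Vegfd. In NC the overlapping neighbours were Adm and Pgf, Angptl4 and Angptl2, Angptl2 and Vegfd, and Vegfd and Vegfc. Vegfa lay above 97.8% of detected genes in Ufl1-KO and 98.7% in NC, while Pgf lay above 85.3% in Ufl1-KO and 96.4% in NC.

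**Figure D3:**
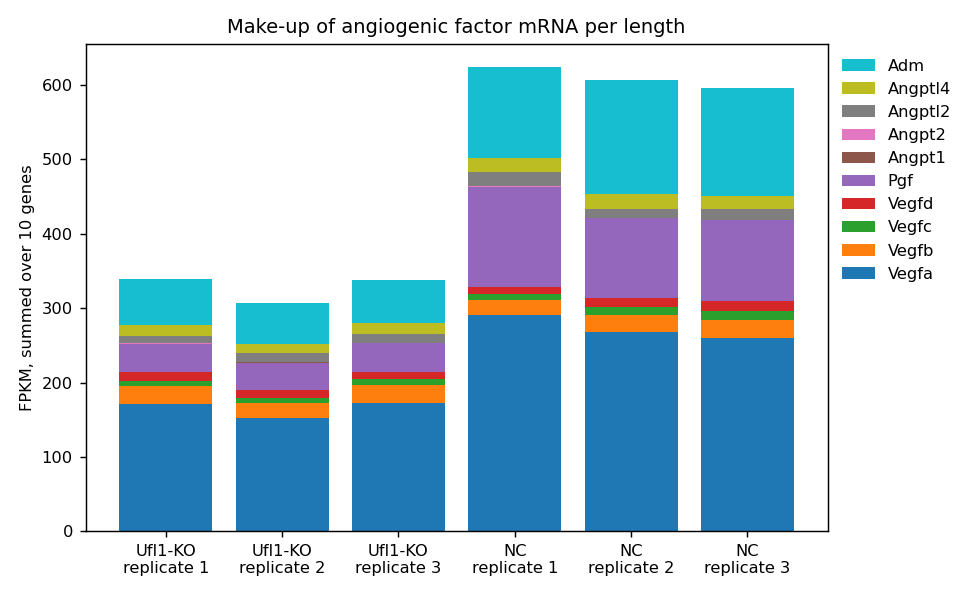
FPKM of the 10 angiogenic factors stacked for each library, Ufl1-KO left of NC. The stacks reach 340, 308 and 338 FPKM in Ufl1-KO and 624, 607 and 596 FPKM in NC, and the Pgf and Adm layers are thinner in every Ufl1-KO library.

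Summed over the 10 factors, FPKM was 328 ± 18 in Ufl1-KO and 609 ± 14.3 in NC, as the plot of stacked FPKM shows. The make-up of this sum also differed. Vegfa took 50.4 ± 0.917% of it in Ufl1-KO and 44.8 ± 1.57% in NC, and Vegfb 6.98 ± 0.162% in Ufl1-KO and 3.73 ± 0.463% in NC. Pgf took 11.4 ± 0.432% in Ufl1-KO and 19.2 ± 2.13% in NC, and Adm 17.8 ± 0.540% in Ufl1-KO and 23.1 ± 3.04% in NC. For each of these 4 factors the ranges of the groups did not overlap, and the same held for Vegfd, Angptl4, Angpt1 and Angpt2, but not for Vegfc and Angptl2. The shares make up the whole sum, so a lower share of some factors means a higher share of others. A higher share is thus not a higher level: the FPKM of Vegfa was lower in Ufl1-KO.

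Ratios within a library do not depend on the scaling between libraries, and 3 were tested. Vegfa over Vegfb was 7.29, 7.22 and 7.15 in Ufl1-KO against 14.5, 11.4 and 10.6 in NC (difference of the mean log2 ratio -0.74, Ufl1-KO minus NC). Vegfa over Pgf was 4.53, 4.15 and 4.58 in Ufl1-KO against 2.16, 2.51 and 2.38 in NC (0.91). Vegfc over Vegfd was 0.514, 0.572 and 0.743 in Ufl1-KO against 0.858, 0.758 and 0.938 in NC (-0.49). The groups did not overlap in any of the 3, and each gave p = 0.1 in an exact two-sided permutation test, the smallest possible, and 0.1 after Benjamini-Hochberg adjustment over the 3. In each Ufl1-KO library Vegfb was thus higher and Pgf lower relative to Vegfa than in any NC library, and Vegfc was lower relative to Vegfd. Angpt1 over Angpt2 has no value in NC replicate 2, where Angpt2 was listed at 0, and its sign depended on how that was handled. The difference, Ufl1-KO minus NC, was 0.58 on log2(FPKM + 0.1), -0.23 on log2(count + 1) and -0.17 without NC replicate 2 (exact two-sided permutation p = 0.1, 0.8 and 0.8).

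Dividing a gene's counts by its FPKM and the library total gives the transcript length behind the FPKM value. For Adm this was 1390 bases in every library, and for Vegfd 2049, the lengths of the GENCODE transcripts Adm-201 and Vegfd-201. For Vegfa it varied between libraries, at 2884, 3023 and 2813 bases in Ufl1-KO against 2983, 3059 and 3089 bases in NC. The highest exceeded the lowest by 9.82%, and the groups overlapped. Vegfc was at 2141 bases in Ufl1-KO replicate 1 and at 2449 in the other 5 libraries, the length of Vegfc-201, and Angptl2 at 3289 in Ufl1-KO replicate 1 and 3339 elsewhere. Of 8509 genes with a mean count of at least 200 and an FPKM of at least 1, the length differed by under 1% in 35.4% and by over 5% in 43.0%. This measure was chosen after the data were seen and is given as a description.

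**Figure D4:**
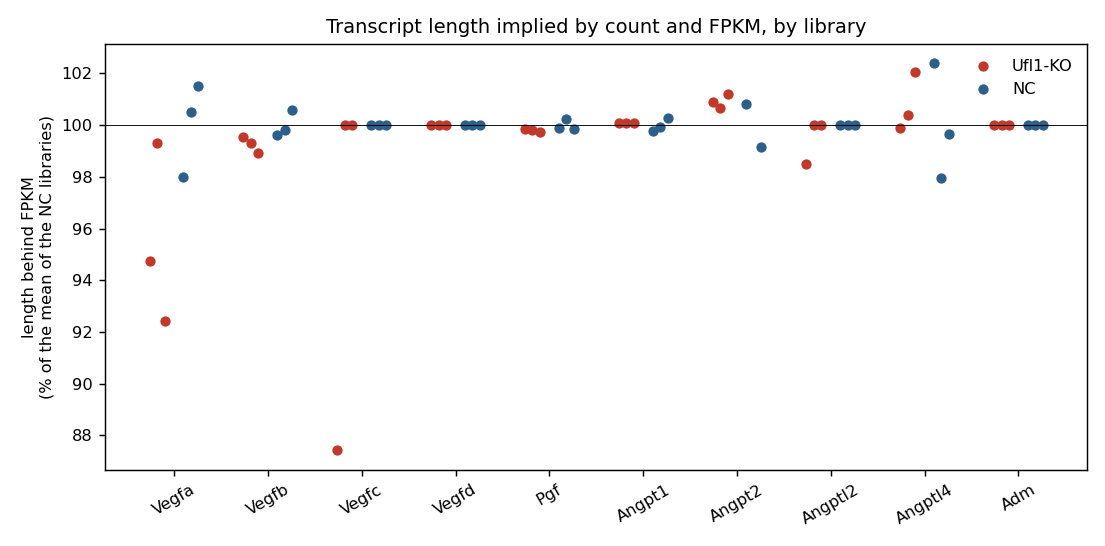
Transcript length implied by count and FPKM for each factor and library, as a percentage of the mean of the NC libraries, Ufl1-KO left of NC. Vegfa and Angptl4 vary between libraries, Vegfc stands out in Ufl1-KO replicate 1 with 2141 bases, and Adm and Vegfd do not move.

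Cell type markers were read beside these values. Of 12 endothelial markers, Tie1, Emcn and Cldn5 were at 0 in all libraries, and the list summed to 6.38 to 7.38 CPM in Ufl1-KO and 5.70 to 8.47 CPM in NC. Kdr, Tek and Pecam1 were the most abundant, with Pecam1 at 0.123 ± 0.169 CPM in Ufl1-KO and 0.917 ± 0.264 CPM in NC. The leukocyte list summed to 36.4 to 39.5 CPM in Ufl1-KO and 39.8 to 46.9 CPM in NC, with Cd3e at 0. Of its most abundant genes Cd68 and Csf1r fell (-0.84, SE 0.12, and -0.94, SE 0.22) and Cd14 rose (0.74, SE 0.14). The epithelial list summed to 322 to 333 CPM in Ufl1-KO and 306 to 410 CPM in NC, most of it Krt18. Krt14 fell to 22.9 ± 1.53 CPM in Ufl1-KO, against 48.4 ± 2.88 CPM in NC (-1.08, SE 0.09), and Cdh1 rose (0.70, SE 0.15). Pericyte and smooth muscle markers summed to 64.0 to 65.8 CPM in Ufl1-KO and 124 to 149 CPM in NC, with 4 of 5 tested lower. Among these 4 is Kcnj8, named after its values were seen, at 0.0658 ± 0.0374 CPM in Ufl1-KO and 0.948 ± 0.227 CPM in NC. Kcnj8 passed the filter on low counts only through NC, so its direction was favoured by the filter. Notch3 and Pdgfrb, which led the list, fell to 34.0 ± 0.763 and 21.8 ± 0.979 CPM in Ufl1-KO, against 82.4 ± 9.95 and 40.6 ± 4.69 CPM in NC, and Cspg4 was at 5.61 ± 1.0 CPM in Ufl1-KO and 4.90 ± 1.04 CPM in NC. The call of Des, named after its values were seen, was narrow (adjusted p = 0.0487, groups overlapping), and its adjusted p was 0.0709 with the DESeq2 Wald test, 0.143 with library size scaling, 0.152 without NC replicate 2, 0.154 without NC replicate 3, and 0.0551, 0.155 and 0.106 without Ufl1-KO replicate 1, 2 and 3. The part of these markers in the factors' values was not tested.

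Most of the 10 fibroblast markers fell with the factors. They summed to 6245 to 6467 CPM in Ufl1-KO and 11574 to 12374 CPM in NC, and of 9 tested 7 fell and S100a4 rose. With library size scaling 6 were called lower and 1 higher, where 25.5% of all tested genes were called lower and 43.9% higher. In limma on log2(FPKM + 1) 5 were called lower and 1 higher, where 23.4% of all genes were called lower and 40.6% higher. Vim and the collagen genes Col1a1 and Col3a1 were abundant in both groups, Thy1 was at 0.887 ± 0.118 CPM in Ufl1-KO and 0.839 ± 0.130 CPM in NC, and Lum was at or near 0. S100a4, Thy1 and Lum are named after their values were seen. The part of this in the fall of Vegfa, Vegfc, Pgf, Angptl2, Angptl4 and Adm was not tested, and in bulk RNA fewer cells of a type and less RNA per cell cannot be told apart.

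Of 13 genes that regulate Vegfa mRNA, all tested, 7 fell and 2 rose, and the median log2 fold change was -0.52. Over all tested genes 66.7% were called, 33.4% lower and 33.3% higher. Zfp36, which destabilises Vegfa mRNA, fell to 14.4 ± 1.21 CPM in Ufl1-KO, against 65.0 ± 5.80 CPM in NC (log2 fold change -2.18, SE 0.10). Vhl, which marks HIF proteins for degradation, fell to 105 ± 3.29 CPM in Ufl1-KO, against 227 ± 20.9 CPM in NC (-1.11, SE 0.08). Arnt, the common HIF partner, fell to 90.6 ± 0.147 CPM in Ufl1-KO, against 203 ± 31.5 CPM in NC (-1.16, SE 0.11). Atf4, a transcription factor of the stress response, fell to 249 ± 12.0 CPM in Ufl1-KO, against 734 ± 104 CPM in NC (-1.56, SE 0.10). The genes named here include activators and repressors of Vegfa, and their part in the fall of Vegfa was not tested. Hif1a, named after its values were seen, was at 890 ± 56.9 CPM in Ufl1-KO and 893 ± 136 CPM in NC. Its log2 fold change was -0.01 (edgeR adjusted p = 0.968), 0.17 with library size scaling, and 0.14 without NC replicate 1 (adjusted p = 0.00884).

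Of 10 tested PPAR factors and targets, a set to which Angptl4 also belongs as a known target, 4 rose and 3 fell. The median log2 fold change was 0.04, and over all tested genes 33.3% rose and 33.4% fell. Ppard, which encodes PPAR delta, fell to 53.6 ± 3.13 CPM in Ufl1-KO, against 132 ± 8.60 CPM in NC (-1.29, SE 0.08). Its target Pdk4, a kinase that restrains glucose oxidation, fell to 4.01 ± 0.476 CPM in Ufl1-KO, against 14.1 ± 1.29 CPM in NC (-1.81, SE 0.14). Cpt1a, which carries fatty acids into mitochondria, rose to 98.5 ± 2.95 CPM in Ufl1-KO, against 46.2 ± 4.42 CPM in NC (1.09, SE 0.08), and the partner receptor Rxra rose as well (0.91, SE 0.10). The PPAR targets named here moved in both directions, and the part of PPAR factors in the fall of Angptl4 was not tested.

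**Figure D5:**
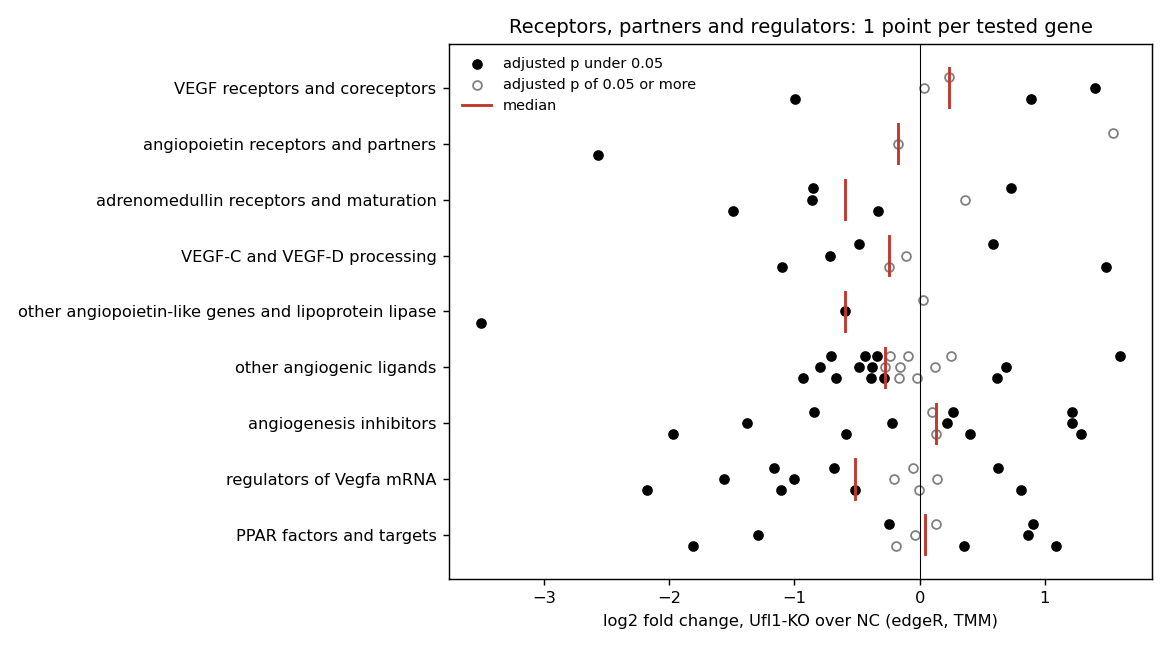
Log2 fold change, Ufl1-KO over NC, of each tested gene in the 9 lists of receptors, partners and regulators, filled where the adjusted p was under 0.05, with a line at each list's median. Every list but the angiopoietin-like and angiopoietin receptor lists has called genes on both sides of 0, and the medians run from -0.60 to 0.23.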

How the data were processed

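Total RNA of MEFs was sequenced in 6 libraries. The submitters' processing notes name STAR 2.7.7a, featureCounts 2.0.0 and fastp 0.20.1 as tools and GRCh38, hg38 and mm10 as builds, with no role for each. Neither the annotation, nor the strand setting, nor what made the counts fractional is given in the sources used. The deposited estimated counts per gene are not normalised, and 7.29% to 8.09% of the 22274 rows of a library lay more than 0.001 from a whole number, so they were rounded. The deposited FPKM values relate these counts to gene length and the library total. The 1225 rows that name no gene, with 0.594% to 0.661% of counts, were left out. Rows that share a symbol, ignoring case, were summed (1045 names).

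Counts were tested with edgeR 4.0.16 in R 4.3.3 (TMM, filterByExpr, quasi-likelihood test, genotype the only term, two-sided, Benjamini-Hochberg adjustment at 0.05). Where no other test is named, "rose", "fell" and "called" refer to it. Genes that share reads with overlapping or near-identical genes are uncertain. Values are mean ± SD over 3 libraries. The factors, gene lists and marker lists were chosen with earlier results of these data known. Named were every factor, Ufl1, up to 4 tested genes per list with the smallest p, every gene of lists with at most 8 tested genes, and markers at 0 or among the 3 most abundant, except 1 gene that is not reported here. Genes outside this rule are named as chosen after their values were seen, namely Hif1a, S100a4, Thy1, Lum, Des and Kcnj8. Alternatives were DESeq2 1.42.0, limma 3.58.1 (voom, and log2 FPKM with a pseudocount of 1 or 0.1 and a mean FPKM of at least 0.1), other scalings and filters, rows tested separately, a replicate block, a fold change of 1.5 as the null, and each library left out. Summaries were made in Python 3.11.15 with numpy 2.4.6, scipy 1.17.1 and pandas 2.3.3, and figures with matplotlib 3.10.9.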

Additional observations from a re-analysis of the deposited data

How the results depend on the processing

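Vegfa, Pgf and Adm kept their direction and call under all 19 alternatives. Angpt1 did so too, with log2 fold changes from 0.54 to 2.39, but it passed the main filter on low counts only through Ufl1-KO. Its direction in fits with such a filter was favoured by the filter. Vegfb changed sign, to 0.0078 with library size scaling, to 0.0197 in limma on log2(FPKM + 0.1) and to 0.0189 in limma on log2(FPKM + 1) with or without a filter, none of which called it. With these scalings all genes together had a median of 0.13 to 0.18, against 0.00 with TMM. Against a fold change of 1.5, 3 factors were called lower, with Vegfc, Angptl2 and Angptl4 lost (adjusted p = 0.0803, 0.412 and 0.843), and over all genes 1214 were called higher and 1587 lower. Angptl2 was also lost in limma on log2(FPKM + 1) without a filter (-0.41, adjusted p = 0.0743). The count of factors called higher was 2 in the DESeq2 Wald test, without a filter on low counts and in limma on log2(FPKM + 1) without a filter, since Angpt2 was then tested and called. Over all genes these alternatives called 29.8%, 27.2% and 33.5% higher, in the same order. Leaving out 1 library at a time gave 1 to 2 factors higher and 6 to 8 lower, 8 without NC replicate 1, where Vegfb and Vegfd were called, and the 3 tested ratios did not change direction. Over all genes the leave-outs gave 3488 to 4783 higher and 3607 to 4594 lower. With the replicate block, 1 factor was called higher and 6 lower, and over all genes 3892 higher and 3910 lower. The labels do not say whether the replicate numbers pair the libraries. Deviations of same-numbered libraries correlated at 0.02, -0.18 and 0.01, and not every library correlated best with its own number. With 3 libraries per group, such values show no sign of pairing but cannot exclude it. The counts of Angpt1 and Angpt2 limit their precision most.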

Other observations

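Other angiogenic ligands were read in the same way. Of 21 tested of 23, 10 fell and 3 rose by edgeR's test, and the median log2 fold change was -0.27. With library size scaling 4 fell and 4 rose, where 25.5% of all tested genes were called lower and 43.9% higher. The numbers of falls and rises thus depend on the scaling, as do the shares over all genes. Hbegf, an EGF receptor ligand, fell to 57.9 ± 1.45 CPM in Ufl1-KO, against 100 ± 20.6 CPM in NC (log2 fold change -0.79, SE 0.13). The chemokine gene Cxcl12 fell to 206 ± 2.24 CPM in Ufl1-KO, against 288 ± 17.8 CPM in NC (-0.48, SE 0.06), and the matrix protein gene Ccn1 to 336 ± 4.76 CPM in Ufl1-KO, against 640 ± 225 CPM in NC (-0.93, SE 0.20). Hgf, the ligand of Met, rose to 3.08 ± 0.588 CPM in Ufl1-KO, against 1.01 ± 0.173 CPM in NC (1.6, SE 0.25).

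Angiogenesis inhibitors moved in both directions. Of 13 tested of 15, 6 rose and 5 fell, and the median log2 fold change was 0.13, where 33.3% of all tested genes rose and 33.4% fell. Serpinf1, which encodes the inhibitor PEDF, fell to 43.0 ± 1.67 CPM in Ufl1-KO, against 168 ± 9.02 CPM in NC (-1.97, SE 0.07). The guidance ligand Sema3e fell to 51.8 ± 0.762 CPM in Ufl1-KO, against 135 ± 4.95 CPM in NC (-1.38, SE 0.06), and Thbs1, for thrombospondin 1, to 163 ± 5.47 CPM in Ufl1-KO, against 292 ± 26.8 CPM in NC (-0.84, SE 0.08). The chemokine gene Cxcl10 rose to 169 ± 1.26 CPM in Ufl1-KO, against 72.6 ± 10.3 CPM in NC (1.22, SE 0.10).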
